A study of Mus musculus with 15 samples.

Results

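The genes described here make the sugar donors for N-glycosylation, build and transfer the N-glycan, and trim and extend it in the endoplasmic reticulum (ER) and the Golgi. They are 46 of the 22339 genes in the deposited table, taken by gene symbol, from the hexosamine pathway through to Golgi branching, with the transcripts of each gene summed. Of these, 45 reached 1 TPM or more in 3 or more of the 15 libraries and were tested, as were 11246 genes in all. TPM, the share of transcripts scaled to 1000000, is a level per transcript length, so levels can be set side by side between genes. This holds less well for genes that rest on short transcripts, where a few reads give a high TPM.

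RNA was sequenced from plasma cells, which are B lineage cells specialised in secreting antibody, sorted straight from untreated, unimmunised male C57Bl6/N mice aged 8 to 12 weeks. All groups were sorted as CD138-high, Ly6g- and CD11c-. Spleen cells were split by surface B220 (the B cell form of CD45) and by uptake of 2NBDG, a fluorescent glucose analogue, into 2 groups that took up little (B220+2NBDG- and B220-2NBDG-) and 2 that took up more (B220+2NBDG+ and B220-2NBDG+). Bone marrow plasma cells (BMPC) were B220- and 2NBDG+. Each group had 3 biological replicates of about 30000 double-sorted cells, and no label says whether the cells of 1 library came from 1 mouse or from several.

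In the hexosamine pathway, fructose 6-phosphate derived from glucose is joined to nitrogen from glutamine, and the product is turned into UDP-GlcNAc, the donor of N-acetylglucosamine. On the ER membrane, sugars are added step by step to the lipid dolichol, and the oligosaccharyltransferase complex moves the finished oligosaccharide onto asparagine residues of new proteins. Glucosidases and mannosidases then trim it, and Golgi enzymes add N-acetylglucosamine, galactose, fucose and sialic acid. Immunoglobulin heavy chains carry such N-glycans, and the galactose, core fucose and sialic acid on IgG are known to affect binding to its receptors.

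TPM below leaves out 262 immunoglobulin locus genes and is rescaled to 1000000 per library. Of the deposited TPM, immunoglobulin loci took 91.1% to 92.1% for libraries of B220+2NBDG- and 94.5% to 94.8% for those of B220-2NBDG-. It was 95.2% to 95.6% for B220+2NBDG+, 96.3% to 96.6% for B220-2NBDG+ and 94.9% to 96.3% for BMPC. The libraries held 17312281 to 24886974 estimated reads, 4408757 to 9935290 of them outside those loci. Libraries of 1 group correlated at 0.965 to 0.976, except that replicate 3 of B220+2NBDG- correlated at 0.939 and 0.946 with the others of its group. Genes of the plasma cell list (7 genes, Jchain the most abundant) were detected in every group and summed to 30980 to 131000 TPM. The T cell list (8 genes) summed to 102.3 to 487.7 TPM in B220+2NBDG- and to 27.6 to 60.4 in B220-2NBDG+, and the B cell list (6 genes) to 319.4 to 1059 and 114.4 to 231.7. The cell division list (13 genes) summed to 1130 to 1529 TPM in B220+2NBDG- and 317.5 to 595.3 in B220-2NBDG-. With 2NBDG uptake it was 418.8 to 713.4 in B220+ and 135.6 to 193.0 in B220- cells. The erythroid list (6 genes) summed to 2045 to 6653 TPM in replicate 3 of the 4 spleen groups, against 56.0 to 403.2 in their other libraries, and to 308.3 to 1043 in BMPC. The monocyte and macrophage list (8 genes) summed to 137.0 to 449.2 TPM in B220+2NBDG- and 173.7 to 693.7 in B220-2NBDG-, then to 405.5 to 1879 in B220+2NBDG+ and 233.7 to 953.0 in B220-2NBDG+. The neutrophil list (7 genes) summed to 5491 to 9301 TPM in BMPC against 63.0 to 310.3 in B220-2NBDG+. No gene of these lists was at 0 in all libraries of a group, and the part of such cells in the members' differences was not tested. In sorted pools, fewer cells expressing a gene and less RNA of it per cell cannot be told apart.

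Across the pathway, 4 members were called in at least 1 of the 4 main comparisons (2NBDG, B220, their interaction and bone marrow). Of all tested genes 6.46%, 8.65%, 0.0267% and 1.92% were called in these comparisons, and the share called in at least 1 was not counted. A call is an adjusted p under 0.05. B4galt1, which adds galactose to N-glycans, was lower in 2NBDG+ than in 2NBDG- spleen cells and lower in B220- than in B220+ cells. Fut8, which adds the core fucose, was higher in 2NBDG+ cells, and Tusc3, an oligosaccharyltransferase subunit present at very low level, was lower. Gmppb, which makes GDP-mannose, was lower in bone marrow than in the spleen cells of the same B220- 2NBDG+ phenotype. In fits without 1 library, Tusc3 and the B220 call of B4galt1 were each lost in 8 of 12. Gmppb was lost in 5 of 6 and Fut8 in 2 of 12, and the 2NBDG call of B4galt1 was kept in all 12. Within single strata of the spleen cells, Rpn1, a structural oligosaccharyltransferase subunit, was also called lower for 2NBDG in B220- cells. The tests were made with limma on log2(TPM + 1), with p-values adjusted over all 11246 genes by the Benjamini-Hochberg method, and fold changes are on that scale, which understates the change of low genes.

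**Figure D1:**
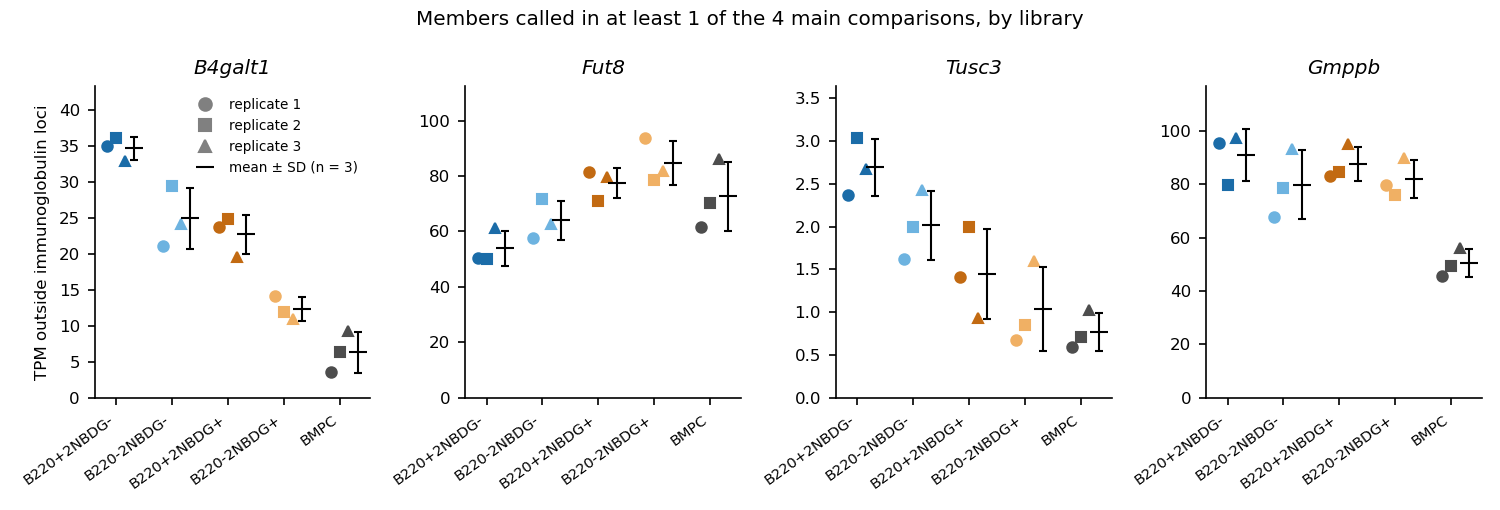
TPM outside immunoglobulin loci (vertical axes, starting at 0) of the 4 members called in at least 1 of the 4 main comparisons, in each of the 15 libraries by group, with the mean and SD of 3 libraries. B4galt1 runs from 32.9 to 36.1 in B220+2NBDG- to 3.54 to 9.22 in BMPC, Fut8 lies above 70 in all 6 libraries of 2NBDG+ spleen cells, and Gmppb lies under 60 only in BMPC.

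In 2NBDG+ against 2NBDG- spleen cells, averaged over B220, 3 of 45 members passed the threshold of an adjusted p under 0.05, of which 1 was higher and 2 were lower. Over all tested genes 6.46% were called (2.02% higher and 4.44% lower), so the members' count is close to that share. The members' median log2 fold change was -0.06 beside -0.04 over all genes. In B220- against B220+ cells, averaged over 2NBDG, 1 of 45 members was called, lower, against 8.65% of all genes (2.8% higher and 5.85% lower), and the medians were -0.15 and -0.09. No member was called for the interaction of 2NBDG and B220 in limma, against 0.0267% of all genes. For it 2 members had an unadjusted p under 0.05, beside 623 of all 11246 genes. In BMPC against spleen B220-2NBDG+ cells, 1 of 45 members was called, lower, against 1.92% of all genes (1.03% higher and 0.889% lower), with medians of -0.30 for the members and -0.18 for all genes. These comparisons share groups and are given side by side.

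The scale set how many members were called. With TPM as deposited, immunoglobulin included, 42 of 45 members were lower in 2NBDG+ cells and 37 of 45 lower in B220- cells, and the medians over all genes moved to -0.21 and -0.17. On that scale 8258 genes were called lower and 28 higher for 2NBDG, 6694 lower and 167 higher for B220, and 2 lower and 98 higher in BMPC. The deposited values outside immunoglobulin loci were 11.2 to 29.3 times lower than those used here, and 1 TPM was still added. Estimates on TPM as deposited are therefore also compressed and not like for like in size with the others. With median-of-ratios scaling, which centres most genes near 0, the all-gene median in BMPC moved from -0.18 to 0.01 and the members' median from -0.30 to -0.09. The calls over all genes were then 426 lower and 297 higher for 2NBDG, 475 and 524 for B220, and 33 and 183 in BMPC, against 499 and 227, 658 and 315, and 100 and 116 on the scale used here. The directions below are therefore relative to the RNA outside the immunoglobulin loci.

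**Figure D2:**
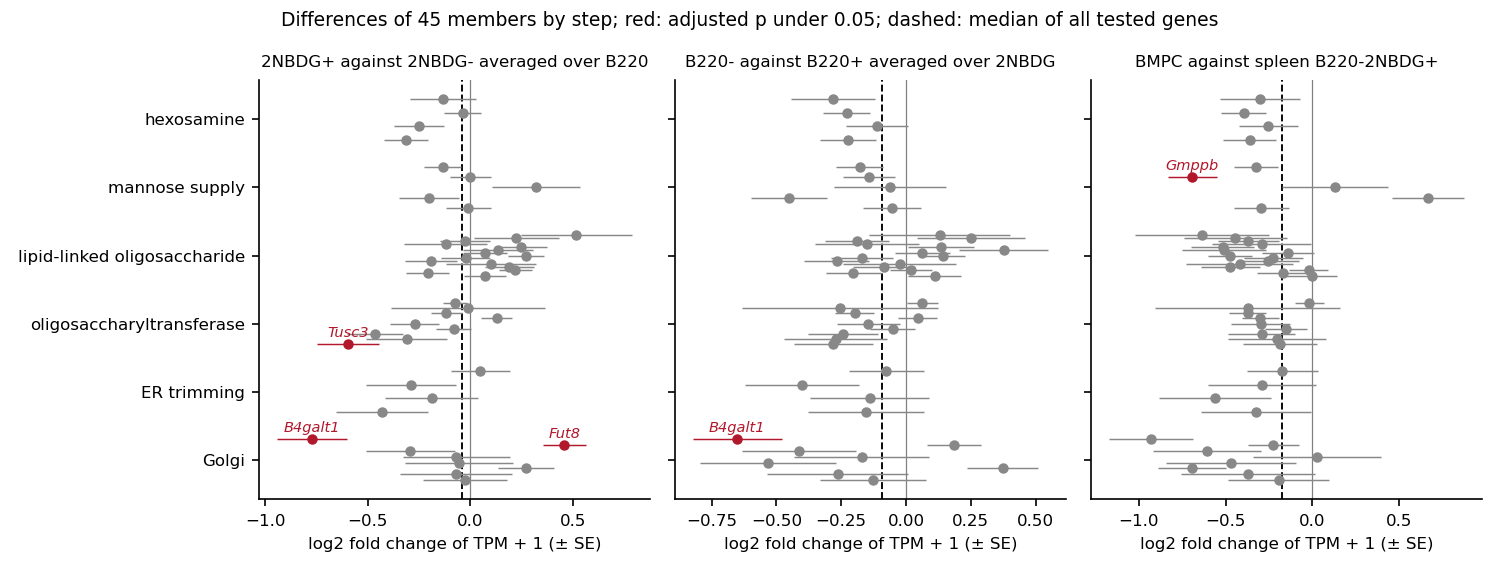
Log2 fold change of TPM + 1 (horizontal axes, points with SE) of 45 members by step of the pathway (vertical axis), in the 2NBDG, B220 and bone marrow comparisons, with the members called at an adjusted p under 0.05 in red and named. The dashed lines mark the medians of all tested genes at -0.04, -0.09 and -0.18, and most members lie near them.

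The hexosamine pathway was present at moderate level and no member of it was called in any of the 4 comparisons (limma), with 1, 1, 0 and 2 genes at an unadjusted p under 0.05 for 2NBDG, B220, the interaction and bone marrow. Over all 11246 tested genes these counts were 2257, 2659, 623 and 1893. Gfpt1, the glutamine:fructose-6-phosphate amidotransferase that sets the rate of the pathway, averaged 34.6 ± 9.17 TPM (SD, n = 3) for B220+2NBDG- and 29.1 ± 5.30 for B220-2NBDG-. With 2NBDG uptake it averaged 32.2 ± 4.34 among B220+ and 25.2 ± 2.45 among B220- libraries, and BMPC averaged 20.6 ± 5.43. Libraries of neighbouring groups in that order overlapped, and the 2NBDG difference was -0.13 ± 0.16 (SE) on the log2 scale (adjusted p = 0.713). Its paralog Gfpt2 was at or near the limit of detection. It was listed at 0 in 6 of 15 libraries, reached at most 0.149 TPM, and rested on 18 estimated reads over all libraries.

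The other enzymes of the pathway differed more in level than between groups. Gnpnat1, which acetylates glucosamine 6-phosphate, averaged 119 TPM over the 15 libraries, Pgm3, the phosphoacetylglucosamine mutase, 29.1, and Uap1, which makes UDP-GlcNAc, 15.2. Uap1 measured 17.1, 19.8 and 24.1 TPM in B220+2NBDG- and 16.8, 15.5 and 13.5 in B220+2NBDG+. Its levels were 15.2, 18.0 and 15.7 TPM in B220-2NBDG- and 13.9, 13.3 and 13.5 in B220-2NBDG+, and 9.21, 10.8 and 11.1 in BMPC. In both B220 strata the 2NBDG+ libraries lay below the 2NBDG- libraries, yet the change of -0.31 ± 0.11 was not called (adjusted p = 0.111). It was called when transcripts under 500 nt were left out (-0.35 ± 0.09, adjusted p = 0.0441), an alternative chosen after seeing the data. All 4 tested genes of the pathway had estimates below 0 in the 2NBDG, B220 and bone marrow comparisons, where 57.0%, 63.1% and 73.5% of all tested genes did, with medians of -0.19, -0.23 and -0.33, beside -0.04, -0.09 and -0.18 over all genes. With median-of-ratios scaling these medians were -0.14, -0.14 and -0.11.

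The enzymes of mannose supply turn fructose 6-phosphate into GDP-mannose, from which dolichol-phosphate mannose is also made. The highest was Gmppa, the regulatory subunit of GDP-mannose pyrophosphorylase, at 258.5 TPM over all libraries, above its catalytic partner Gmppb at 78.2. Pmm2, the main phosphomannomutase, averaged 39.4 TPM, Mpi, which isomerises fructose 6-phosphate and mannose 6-phosphate, ranged from 10.4 to 30.2, and Pmm1, the second phosphomannomutase, 12.8. No gene of this step was called in the spleen comparisons.

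Gmppb (chromosome 9, 108049242 to 108052801, plus strand, GRCm38) was called in bone marrow. Its level was 45.7, 49.6 and 56.2 TPM in BMPC and 79.9, 76.2 and 90.0 in spleen B220-2NBDG+, so the groups did not overlap. In the other spleen groups it was between 67.6 and 97.4 TPM. The log2 fold change was -0.69 ± 0.14 (SE, adjusted p = 0.0263, limma). The call was lost with median-of-ratios scaling (-0.46 ± 0.16, adjusted p = 0.222), on TPM as deposited (-0.29 ± 0.12, adjusted p = 0.595) and in 5 of 6 fits that left out 1 library of either group, with adjusted p up to 0.0934. It was kept without BMPC replicate 3 (adjusted p = 0.0247). Neutrophil genes were higher in all 3 BMPC libraries, as given above, and their part was not tested. Pmm1 differed the other way, at 16.3, 18.0 and 11.5 TPM in BMPC and 9.96, 10.5 and 7.12 in B220-2NBDG+, with no overlap and a log2 difference of 0.67 ± 0.21 that was not called (adjusted p = 0.127).

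Assembly of the lipid-linked oligosaccharide was the step whose summed level differed least between groups. Its 15 genes together averaged 1034 ± 56.8 TPM (SD, n = 3) for B220+2NBDG- and 1081 ± 20.4 for B220-2NBDG-. The sum in 2NBDG+ cells averaged 1126 ± 74.2 among B220+ and 1167 ± 31.3 among B220- libraries, and BMPC averaged 1030 ± 13.2. Dpm3 alone, which rests on a transcript of 404 nt, made up 411.2 to 467.9 TPM of these averages. The sum therefore does not stand for the single genes of the step. No gene of the step was called in any of the 4 comparisons (limma), and 2, 1, 0 and 3 had an unadjusted p under 0.05 for 2NBDG, B220, the interaction and bone marrow. Over all 11246 tested genes these counts were 2257, 2659, 623 and 1893. There were 10 of 15 estimates above 0 for 2NBDG, 8 of 15 above 0 for B220 and all 15 below 0 in bone marrow. Of all tested genes 43.0% were above 0 for 2NBDG, 36.9% above 0 for B220 and 73.5% below 0 in bone marrow. The median of the step in bone marrow was -0.37 beside -0.18 over all genes, and -0.15 beside 0.01 with median-of-ratios scaling.

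Dpagt1, which starts the oligosaccharide by adding N-acetylglucosamine phosphate to dolichol phosphate, averaged 32.8 TPM. Alg13 and Alg14, the partners that add the next N-acetylglucosamine, stood at 4.3 and 90.0 TPM. When transcripts under 500 nt were left out and the rest rescaled, Alg14 averaged 16.8 TPM, while Dpagt1 averaged 51.0. The mannosyltransferases Alg1, Alg2 and Alg11, which work on the cytosolic face, averaged 12.4, 20.3 and 32.9 TPM. Those of the lumenal face, Alg3, Alg9 and Alg12, averaged 57.5, 12.5 and 14.3, and the glucosyltransferases Alg6 and Alg8 averaged 13.7 and 31.0. Alg5, which makes dolichol-phosphate glucose, averaged 129 TPM.

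Alg5 was the gene of this step nearest to a call. It measured 127.3, 104.9 and 105.3 TPM for B220+2NBDG- and 143.4, 120.7 and 132.2 for B220-2NBDG-. In cells with 2NBDG uptake it measured 147.1, 132.6 and 153.7 among B220+ and 162.8, 139.8 and 146.5 among B220- libraries, and BMPC measured 100.9, 101.2 and 120.7. The BMPC libraries lay below those of B220-2NBDG+, and the 2NBDG groups overlapped within the B220- stratum. The differences were 0.27 ± 0.09 for 2NBDG (adjusted p = 0.0907) and -0.47 ± 0.12 in bone marrow (adjusted p = 0.0701), and neither was called. With the replicate number as a block both passed (adjusted p = 0.0407 and 0.0473), although in bone marrow same-numbered libraries did not deviate together.

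Dolichol-phosphate mannose synthase has a catalytic subunit, Dpm1, and the subunits Dpm2 and Dpm3 that hold it at the membrane. Dpm1 averaged 124.5 TPM, Dpm2 66.7 and Dpm3 445.3. Dpm1 was between 102.4 and 120.7 TPM in the 6 libraries of 2NBDG- spleen cells and between 122.6 and 153.2 in the 6 of 2NBDG+ cells, with no overlap. The difference of 0.22 ± 0.08 was not called (adjusted p = 0.134), and 79.7% of the TPM of Dpm1 came from a transcript annotated as subject to nonsense-mediated decay. Dpm3 rested almost wholly (99.4%) on a transcript of 404 nt. When transcripts under 500 nt were left out and the rest rescaled, it averaged 4.07 TPM, so its level beside Dpm1 and Dpm2 is uncertain.

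Alg12 was the only member of the 39 with a RefSeq promoter entry whose window, 250 bases before to 50 bases after the gene start, held the ER stress response element (ERSE, CCAAT and CCACG with 9 bases between them, searched on both strands). ERSE was found in 0.137% of 27025 genes with such a window. The site is shown because plasma cells are known for XBP1, a factor that binds such elements. It lies at chr15:88819515-88819543 on the minus strand of GRCm38.p6, and the capitals mark the motif, which begins at position -220 from the RefSeq start.
Alg12 site: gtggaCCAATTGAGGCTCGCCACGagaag
The related ERSE-II (ATTGG and CCACG with 1 base between them, 0.0444% of genes) and the core of the unfolded protein response element (TGACGTGG, 0.714%) were in no member's window. Alg12 itself measured 9.48 to 12.4 TPM in BMPC and 11.4 to 19.0 in the spleen groups and was not called in any comparison.

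**Figure D3:**
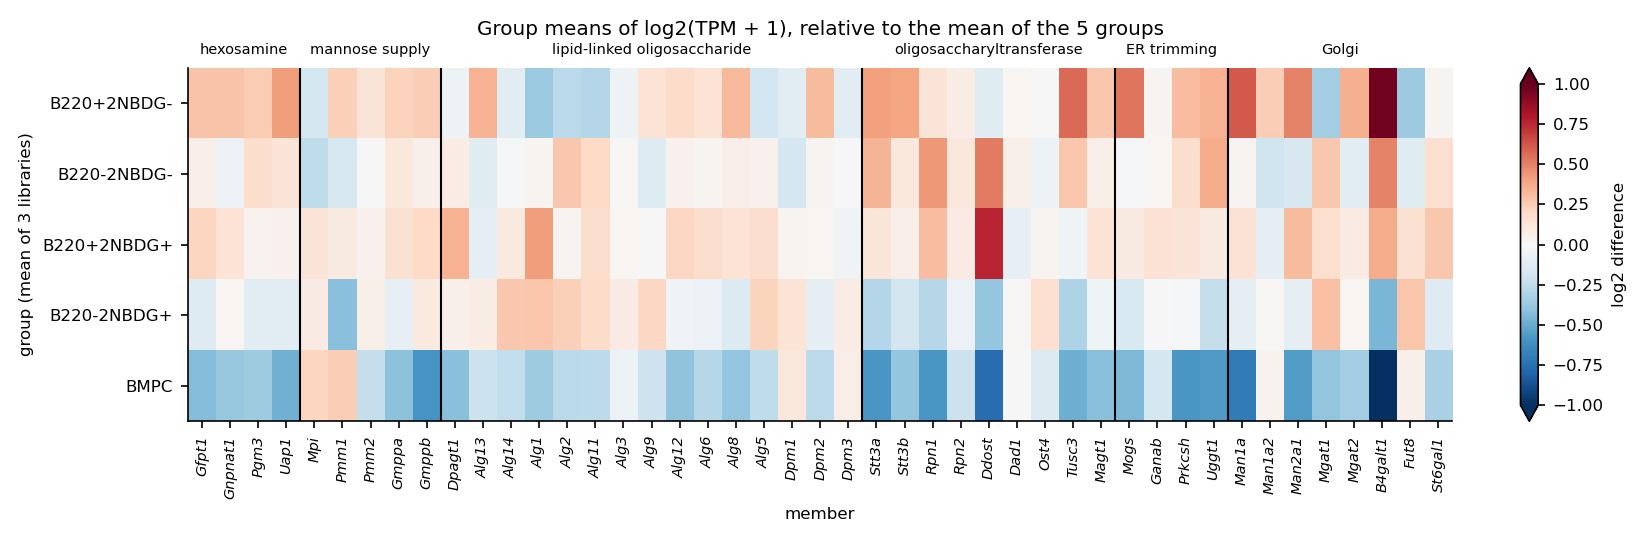
Group means of log2(TPM + 1) of 45 members (horizontal axis, ordered by step), each relative to the mean of the 5 groups (rows), with red above and blue below, in log2 units and with the colour scale ending at 1 and -1. B4galt1 shows the strongest change of colour, and 35 of 45 members have their lowest mean in BMPC on this scale.

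Over the 5 groups, 21 of 45 members (46.7%) had their highest mean TPM in B220+2NBDG-, as did 39.3% of all tested genes. For some this rested on replicate 3 of that group. Mgat2 measured 9.38, 7.44 and 31.7 TPM there against a mean of 10.7 in B220+2NBDG+. Prkcsh measured 18.8, 12.8 and 41.2 TPM against a mean of 19.6 in B220-2NBDG-. Such genes were not counted, among the members or among all genes. The lowest mean was in BMPC for 36 of 45 members (80.0%) and for 55.4% of all genes. With median-of-ratios scaling the lowest mean was in BMPC for 42.2% of members and 24.2% of all genes. Libraries of BMPC and spleen B220-2NBDG+ did not overlap for 15 of 45 members (33.3%), 14 of them lower in BMPC, against 23.7% of all genes. With median-of-ratios scaling this was 13.3% of members against 19.0% of all genes.

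The oligosaccharyltransferase was the most abundant step. Its catalytic subunits are Stt3a, whose complex works with the translocon as the protein enters the ER, and Stt3b, which acts mainly after that. Stt3a averaged 1436 TPM over the 15 libraries and Stt3b 15.8, although 60.2% of the Stt3a value came from a transcript of 285 nt with an effective length of 39.9 nt, where a few reads give a high TPM. Without transcripts under 500 nt, Stt3a averaged 887.6 and Stt3b 24.6. The structural subunits Ost4, Dad1 and Rpn2 averaged 677.5, 671.5 and 480.6 TPM, Rpn1 274.4, and Ddost 77.5.

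Dad1 was nearly level over the groups, between 592.6 and 722.5 TPM in all 15 libraries. Ddost spread most within groups, from 30.4 to 128.4 TPM in B220+2NBDG- and from 28.6 to 95.6 in B220-2NBDG+. Its differences in the spleen and bone marrow comparisons were smaller than their spread (adjusted p from 0.733 to 0.994).

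Stt3a measured 2021, 2341 and 1293 TPM for B220+2NBDG- and 1605, 1962 and 1677 for B220-2NBDG-. Its levels with 2NBDG uptake were 1501, 1391 and 1598 among B220+ and 1205, 1100 and 1057 among B220- libraries, and BMPC measured 718, 1039 and 1026. Replicate 3 of B220+2NBDG- was below the other libraries of its group and below every library of B220+2NBDG+. The 2NBDG difference was -0.46 ± 0.14 (adjusted p = 0.0603) and the B220 difference -0.24 ± 0.14 (adjusted p = 0.299), and neither was called. With the replicate number as a block the 2NBDG difference passed (adjusted p = 0.0454). Without that library, which stood apart over all genes, both were called, at -0.59 ± 0.10 (adjusted p = 0.00422) and -0.37 ± 0.10 (adjusted p = 0.0375). The count of members called for 2NBDG then went from 3 to 4, and that for B220 from 1 to 2. Calls over all 11246 genes also rose, to 803 lower and 360 higher for 2NBDG and 964 and 375 for B220. With all libraries they were 499 and 227, and 658 and 315. In replicate 3 of B220+2NBDG- the erythroid list summed to 2045 TPM against 56.0 and 64.2 in the others of its group, and the neutrophil list to 370.1 against 54.5 and 29.6. Its plasma cell list summed to 45558 TPM against 31543 and 30980, its monocyte and macrophage list to 449.2 against 137.0 and 317.5, and its T cell list to 102.3 against 487.7 and 283.7. Their part in the Stt3a difference was not tested.

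Rpn1 had the largest interaction estimate relative to its error. It measured 340.6, 254.5 and 277.2 TPM in B220+2NBDG- and 338.9, 336.6 and 304.8 in B220+2NBDG+, which overlapped. In B220- cells it measured 298.5, 401.3 and 378.2 TPM without 2NBDG and 254.8, 213.5 and 184.7 with it, and these libraries did not overlap. Within B220- cells the fit called it lower (-0.72 ± 0.17, adjusted p = 0.040), where 2.79% of all genes were called. Within B220+ cells the difference was 0.18 ± 0.17 (adjusted p = 0.697). The test of the difference between the strata did not pass (interaction -0.90 ± 0.24, adjusted p = 0.499), so the strata are not shown to differ. The call within B220- cells was lost in 4 of 6 fits that left out 1 library, with adjusted p up to 0.197, and 53.6% of the Rpn1 TPM came from a transcript annotated as subject to nonsense-mediated decay. Ddost had the next lowest unadjusted p for the interaction (-1.79 ± 0.75, adjusted p = 0.820).

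**Figure D4:**
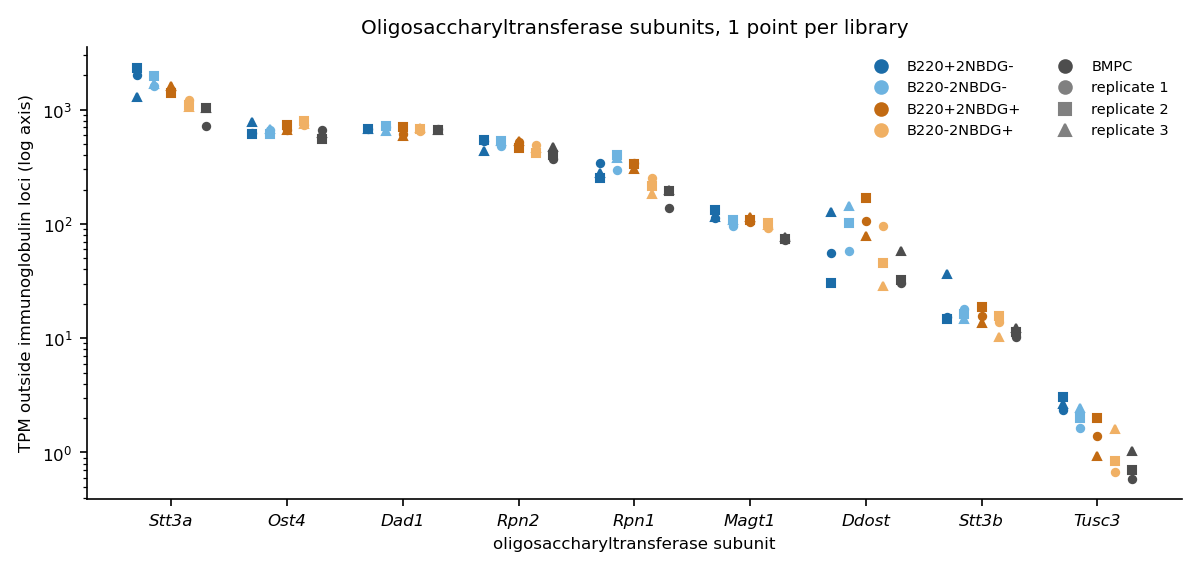
TPM outside immunoglobulin loci (vertical log axis) of 9 oligosaccharyltransferase subunits (horizontal axis) in 15 libraries, coloured by group and with the symbol giving the replicate. Stt3a lies between 718 and 2341, Dad1 between 592.6 and 722.5, and Tusc3 between 0.592 and 3.03.

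Magt1 and Tusc3 are alternative oxidoreductase subunits of the complex that contains Stt3b. Magt1 averaged 101.4 TPM and Tusc3 1.6. Tusc3 (chromosome 8, 39005845 to 39165114, plus strand) measured 2.37, 3.03 and 2.67 TPM in B220+2NBDG- and 1.41, 1.99 and 0.937 in B220+2NBDG+. In the B220- groups it measured 1.63, 1.99 and 2.43 TPM without 2NBDG and 0.676, 0.850 and 1.60 with it, and it was 0.592, 0.707 and 1.02 in BMPC. In each stratum the 2NBDG+ libraries lay below the 2NBDG- libraries, and Tusc3 was called lower (-0.60 ± 0.15, adjusted p = 0.0317). These values rest on 4 to 42 estimated reads per library. The call was lost in 8 of 12 fits without 1 spleen library (adjusted p up to 0.085) and without the filter on low values (adjusted p = 0.0503). T cell genes were also lower in 2NBDG+ cells (3 of 7 tested called lower), as were 12 of 13 cell division genes, and their part in the Tusc3 difference was not tested.

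Magt1 was lower in B220- cells in each 2NBDG stratum without overlap. It measured 113.6, 133.9 and 115.6 TPM in B220+2NBDG- and 95.6, 108.8 and 108.6 in B220-2NBDG-, then 105.1, 109.3 and 116.1 in B220+2NBDG+ and 91.8, 101.5 and 97.1 in B220-2NBDG+. The difference of -0.20 ± 0.08 was not called (adjusted p = 0.127). It was 72.2, 74.1 and 77.1 TPM in BMPC, again without overlap with B220-2NBDG+ and not called (-0.37 ± 0.11, adjusted p = 0.0946). Over all members, 5 of 45 did not overlap in either stratum for 2NBDG (Uap1, Tusc3 and B4galt1 lower, Dpm1 and Fut8 higher), against 5.53% of all genes. For B220 these were Magt1 and B4galt1, both lower, against 7.59% of all genes.

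Partner genes were also compared within each library, as the log2 ratio of their TPM + 1. The scale of the library largely cancels in such a ratio for genes well above the added 1 TPM. It cancels only in part for Tusc3, at 0.592 to 3.03 TPM. The 5 pairs in 3 comparisons gave 15 two-sided exact permutation tests, and none passed after adjustment. In the spleen the smallest exact permutation p possible was 0.005, which adjusts to 0.075 where 1 ratio alone reaches it. A single changed ratio could therefore not pass, and the bone marrow tests, with a smallest p of 0.1, could not pass at all. Magt1 over Tusc3 averaged 5.05 ± 0.05 (SD, n = 3) among B220+2NBDG- and 5.13 ± 0.12 among B220-2NBDG- libraries, against 5.53 ± 0.36 with 2NBDG uptake among B220+ and 5.61 ± 0.32 among B220- libraries. It was higher by 0.48 in 2NBDG+ cells, with an exact permutation p of 0.005, the smallest this design can give, and an adjusted p of 0.075. Stt3a over Stt3b was between 5.11 and 7.23 in the 15 libraries and differed by -0.15 for 2NBDG (exact permutation p = 0.725). Replicate 3 of B220+2NBDG- alone was at 5.11, with Stt3b at 36.4 TPM against 15.2 and 14.6 in the others of its group. The difference was -0.48 without that library and 0.05 without replicate 2 of the group, so its size and sign rest on single libraries. In bone marrow the smallest p that 3 against 3 libraries allow is 0.1. Gmppa over Gmppb reached it (1.91 ± 0.10 in BMPC and 1.54 ± 0.18 in B220-2NBDG+), as did Pmm1 over Pmm2 (-1.09 ± 0.50 and -2.05 ± 0.41), both exact permutation p = 0.1 with an adjusted p of 0.375. Man1a over Man1a2 gave adjusted p = 0.506 in each comparison.

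**Figure D5:**
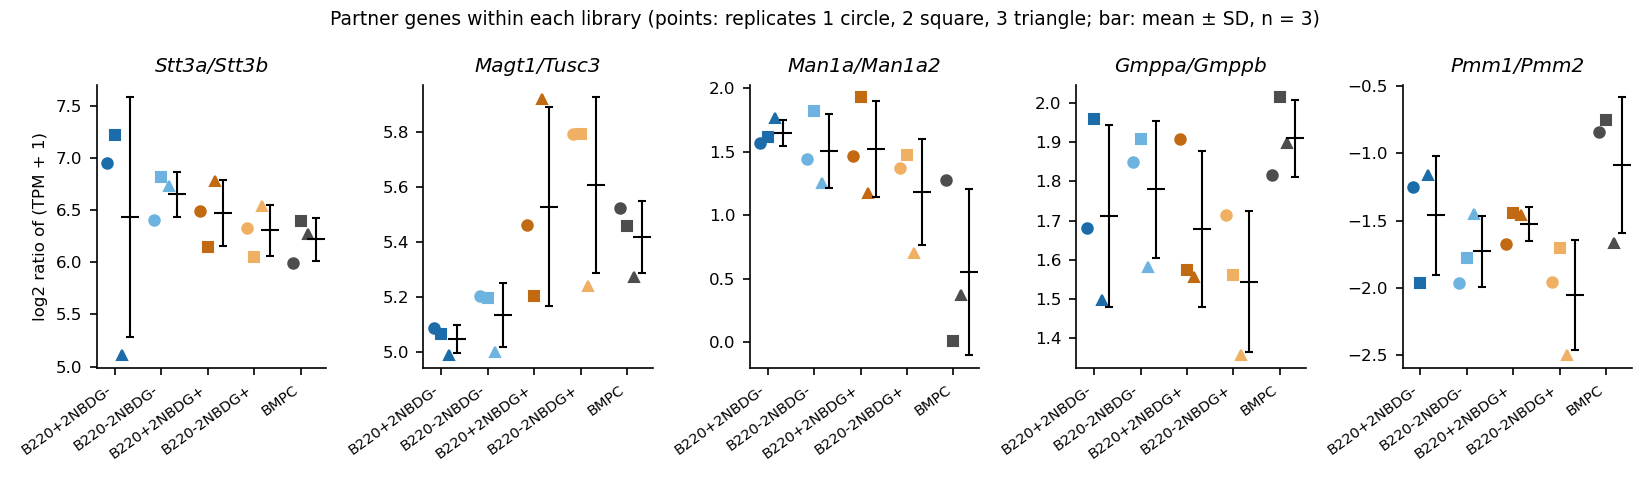
Log2 ratio of TPM + 1 of partner genes (vertical axes) in each of the 15 libraries by group, with the mean and SD of 3 libraries. Magt1 over Tusc3 lies between 4.99 and 5.20 in the 2NBDG- spleen libraries and between 5.20 and 5.92 in the 2NBDG+ spleen libraries, and no ratio passed after adjustment.

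None of the 4 enzymes of ER trimming and quality control was called in any of the 4 comparisons (limma), and none had an unadjusted p under 0.05. Mogs (glucosidase I), which removes the outermost glucose, averaged 4.9 TPM. The catalytic and regulatory subunits of glucosidase II, Ganab and Prkcsh, averaged 92.9 and 18.3. Uggt1, which puts glucose back on glycans of misfolded proteins, averaged 17.6. Their summed level was 147.7 ± 7.44 TPM (SD, n = 3) for B220+2NBDG- and 139.3 ± 11.4 for B220-2NBDG-. The sum in 2NBDG+ cells averaged 143.6 ± 9.60 among B220+ and 127.1 ± 13.3 among B220- libraries, and BMPC averaged 110.8 ± 36.8. Mogs was 13.5 TPM in replicate 3 of B220+2NBDG- and between 2.27 and 6.48 in the other 14 libraries.

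In the Golgi, Mgat1, which adds the first branching N-acetylglucosamine, averaged 406.6 TPM and St6gal1, which caps galactose with sialic acid, 376.2. They were far above the trimming mannosidases Man1a, Man1a2 and Man2a1 at 28.2, 10.6 and 9.2, and above Mgat2, which starts the second branch, at 10.9. Mgat1 measured 385.8, 276.2 and 279.6 TPM for B220+2NBDG- and 450.7, 503.4 and 473.0 for B220-2NBDG-. In cells with 2NBDG uptake it measured 572.8, 381.3 and 398.0 among B220+ and 568.5, 496.2 and 404.0 among B220- libraries, and BMPC measured 238.5, 349.0 and 322.5. The B220 difference of 0.37 ± 0.14 was not called (adjusted p = 0.117), and it was called with median-of-ratios scaling (0.47 ± 0.12, adjusted p = 0.0253). The St6gal1 differences were not called in any comparison, and 38.6% of its TPM came from a transcript of 362 nt. Man1a was 77.2 TPM in replicate 3 of B220+2NBDG- and at most 31.8 in all other libraries.

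B4galt1 (chromosome 4, 40804602 to 40854005, minus strand) had the widest span of group means among the 45 members, a ratio of 5.45 between B220+2NBDG- and BMPC. It measured 35.0, 36.1 and 32.9 TPM in B220+2NBDG- and 23.8, 24.8 and 19.6 in B220+2NBDG+. In the B220- groups it measured 21.1, 29.4 and 24.2 TPM without 2NBDG and 14.2, 12.0 and 10.9 with it. Every 2NBDG+ library lay below every 2NBDG- library of its B220 stratum, and every B220- library below every B220+ library of its 2NBDG stratum. The means of the intermediate groups, 24.9 ± 4.23 in B220-2NBDG- and 22.7 ± 2.73 in B220+2NBDG+, did not differ beyond their spread. Estimated reads were 124 to 1706 per library, 99.9% of them by TPM from 1 transcript of 3983 nt.

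B4galt1 was called lower for 2NBDG (-0.77 ± 0.17 in log2 fold change ± SE, adjusted p = 0.0166) and for B220 (-0.65 ± 0.17, adjusted p = 0.031). The interaction was -0.36 ± 0.34 (adjusted p = 0.976). The 2NBDG call was kept in all 12 fits without 1 spleen library (adjusted p from 0.0179 to 0.0477) and under each other alternative. The B220 call was lost in 8 of those 12 fits (adjusted p up to 0.0872). In BMPC it measured 3.54, 6.30 and 9.22 TPM, below all B220-2NBDG+ libraries, and this difference was not called (-0.93 ± 0.24, adjusted p = 0.0666). It was called without BMPC replicate 3 (-1.21 ± 0.22, adjusted p = 0.0123). Cell division genes moved with B4galt1 in the spleen (12 of 13 called lower for 2NBDG and 13 of 13 for B220), as did B cell genes (4 of 6 lower for B220) and T cell genes (3 of 7 lower for 2NBDG), and their part was not tested. Within B220+2NBDG-, the T cell sum was 487.7, 283.7 and 102.3 TPM in the libraries where B4galt1 was 35.0, 36.1 and 32.9. In BMPC the cell division list summed to 227.9 to 256.3 TPM, above the 135.6 to 193.0 of B220-2NBDG+.

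The sequence upstream of B4galt1 is shown because it was the member called in 2 comparisons. The RefSeq window of 250 bases before the gene start was 66.4% G or C, against a median of 52.4% over all such windows, and held 5 GC boxes (GGGCGG on either strand, in capitals). At least 1 GC box was in 32.7% of windows and at least 5 in 1.43%, and this motif was searched after the data were seen. In the windows used for ERSE above, 29 of 39 members (74.4%) held a GC box, against 38.2% of genes. Holding a GC box was therefore not particular to B4galt1. The 229 bases printed, chr4:40854006-40854234 on the minus strand of GRCm38.p6, end where the GENCODE gene begins.
B4galt1 upstream: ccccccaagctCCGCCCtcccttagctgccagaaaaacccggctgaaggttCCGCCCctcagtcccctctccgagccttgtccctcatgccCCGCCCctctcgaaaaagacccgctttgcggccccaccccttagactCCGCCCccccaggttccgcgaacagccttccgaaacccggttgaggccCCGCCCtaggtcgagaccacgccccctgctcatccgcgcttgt
A match is a description of the letters, and no binding was measured.

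Fut8 (chromosome 12, 77238125 to 77476338, plus strand) differed the other way. It measured 50.5, 49.9 and 61.3 TPM in B220+2NBDG- and 81.5, 71.1 and 79.7 in B220+2NBDG+. In the B220- groups it measured 57.8, 71.7 and 62.8 TPM without 2NBDG and 93.7, 78.6 and 81.9 with it. The 2NBDG+ libraries were above the 2NBDG- libraries in each stratum, and Fut8 was called higher (0.46 ± 0.10, adjusted p = 0.0191), although on TPM as deposited it was called lower (-0.19 ± 0.07, adjusted p = 0.0271). The call was lost without replicate 1 of B220+2NBDG- (adjusted p = 0.0514) or replicate 1 of B220-2NBDG+ (adjusted p = 0.0538). BMPC, at 61.8, 70.3 and 86.2 TPM, overlapped with B220-2NBDG+ (-0.23 ± 0.15, adjusted p = 0.463). Beside it, the plasma cell list had 2 of 7 genes called higher and none lower for 2NBDG, with a median log2 fold change of 0.20. The monocyte and macrophage list had a median of 1.33 and the erythroid list 1.03, with no gene of either called in limma. The part of these lists in the Fut8 difference was not tested.

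A further 58 genes of the same pathways, such as nucleotide sugar transporters, sialic acid and fucose supply, dolichol synthesis, lectin chaperones and later Golgi enzymes, were described beside the members, and 51 were tested. For 2NBDG 1 was called higher and 2 lower, for B220 2 lower, for the interaction 0 (limma), and in bone marrow 1 lower. For the interaction 4 had an unadjusted p under 0.05, beside 623 of all 11246 genes. Of all tested genes 6.46%, 8.65%, 0.0267% and 1.92% were called in these comparisons, so the counts of 3, 2, 0 and 1 of 51 were near or under those shares. Their medians were -0.05, -0.11 and -0.25 in the 2NBDG, B220 and bone marrow comparisons, beside -0.04, -0.09 and -0.18 over all genes. Ostc, a subunit that joins the Stt3a complex to the translocon, was called lower in all 3, and Calr, the lectin chaperone calreticulin, in the first 2.

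Ostc measured 442.7, 454.0 and 559.1 TPM for B220+2NBDG- and 308.8, 395.2 and 365.5 for B220-2NBDG-. With 2NBDG uptake it measured 345.0, 373.0 and 377.6 among B220+ and 233.2, 283.7 and 282.5 among B220- libraries, and BMPC measured 182.8, 174.3 and 186.0. The differences were -0.41 ± 0.09 for 2NBDG (adjusted p = 0.0145), -0.45 ± 0.09 for B220 (adjusted p = 0.00619) and -0.55 ± 0.12 in bone marrow (adjusted p = 0.0405). With median-of-ratios scaling the differences were -0.36, -0.36 and -0.32, and all 3 missed the threshold (adjusted p = 0.0669, 0.0592 and 0.438). The spleen calls were kept in all 12 fits without 1 spleen library. The bone marrow call was lost in 5 of 6 fits without 1 library (adjusted p up to 0.152) and kept without replicate 1 of B220-2NBDG+ (adjusted p = 0.0486). Calr went from 938.3 to 1068 TPM in B220+2NBDG- to 600.4 to 631.4 in B220-2NBDG+, with -0.36 ± 0.08 for 2NBDG (adjusted p = 0.0149) and -0.34 ± 0.08 for B220 (adjusted p = 0.0173). The B220 call of Calr missed the threshold with median-of-ratios scaling (adjusted p = 0.067) and without replicate 1 of B220-2NBDG- (adjusted p = 0.0552).

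Nagk, the kinase that returns free N-acetylglucosamine to the hexosamine pathway, was called higher in 2NBDG+ cells (0.47 ± 0.11, adjusted p = 0.0218). It measured 19.0, 19.5 and 16.9 TPM in B220+2NBDG- and 27.7, 29.5 and 34.4 in B220+2NBDG+, which did not overlap. In the B220- groups it measured 29.3, 29.7 and 20.8 TPM without 2NBDG and 28.7, 31.9 and 33.5 with it, which did overlap. On TPM as deposited its estimate was -0.13 ± 0.07 (adjusted p = 0.133), and the call was lost without replicate 3 of B220+2NBDG+ (adjusted p = 0.063) or of B220-2NBDG+ (adjusted p = 0.0579). The erythroid list was highest in those libraries within their groups, as was the monocyte and macrophage list, and their part was not tested.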

How the data were processed

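The authors deposited TPM per transcript (63553 transcripts), quantified with Salmon 0.9.1 on GRCm38.p6 per the submitters' processing notes. Per the labels' protocols, RNA came from a NucleoSpin XS kit and libraries from Clontech Smartseq and Nextera kits. The transcript annotation is not given in the sources used here, and 99.7% of the transcripts are in GENCODE M21. Transcript length and effective length in nt, deposited beside the TPM, belong to no sample.

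TPM was summed per gene, 262 immunoglobulin genes were removed and the rest rescaled by 11.2 to 29.3. Estimated reads were recovered from TPM and effective length of single-transcript genes of at least 500 nt, where 70.8% to 73.8% of products of at most 20 reads came within 0.05 of a whole number, too few for a count test. limma 3.58.1 (R 4.3.3, eBayes with a trend) was fitted to log2(TPM + 1) on the 5 group means, and genes were called at an adjusted p under 0.05. The fit was also run on simulated data with independent normal noise. These held no effect shared by replicate number, so they do not bear on pairing. Ratios were tested in Python 3.11.15 by exact permutation within strata of the other sort marker. Gfpt1 over Gfpt2 was not tested, since Gfpt2 did not pass the filter. All 46 members could be named, and of the other pathway genes those called. The members and lists were chosen with earlier results of these data known.

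Replicate numbers are in the labels, which do not say what they stand for. Same-numbered B220+ and B220- libraries deviated together in every pair of a 2NBDG stratum (r from 0.193 to 0.415), so the numbers were taken to pair that comparison. The B220 results above, from limma on the group means and from the exact tests, did not use this pairing. With a replicate block in limma the B220 count of 1 and the B4galt1 call (adjusted p = 0.0342) did not change. The B220 calls over all tested genes went from 658 lower and 315 higher to 845 and 389. The alternatives were TPM as deposited, median-of-ratios scaling, a pseudocount of 0.1 TPM, no filter, no trend, a replicate block, leaving out each library, and transcripts of at least 500 nt, the last chosen after seeing the data. Promoter sequences are from RefSeq (GRCm38.p6), with 39 of 46 members matched, and gene positions from GENCODE M21.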

Additional observations from a re-analysis of the deposited data

How the results depend on the processing

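The counts of members called moved by more than 1.5 times as follows. On TPM as deposited they were 42 for 2NBDG, 37 for B220 and 0 in bone marrow, with median-of-ratios scaling 2 for B220 (B4galt1 lower, Mgat1 higher) and 0 in bone marrow, and with transcripts of at least 500 nt 2 for B220 (Magt1 added) and 2 in bone marrow (Alg5 added). Without 1 library, the counts ranged from 1 to 4 for 2NBDG (1 without replicate 1 of B220+2NBDG- or of B220-2NBDG+), from 0 to 2 for B220 and from 0 to 3 in bone marrow (3 without BMPC replicate 3, which added Alg5 and B4galt1), and stayed at 0 for the interaction and for the partner ratios. A single partner ratio could not pass, so the count of 0 for the ratios does not show stability. Calls over all tested genes moved too. With transcripts of at least 500 nt they were 873 lower and 385 higher for B220, and 91 and 111 in bone marrow. For 2NBDG they were 325 and 145 without replicate 1 of B220+2NBDG-, and 317 and 142 without replicate 1 of B220-2NBDG+. Without BMPC replicate 3 they were 182 and 115 in bone marrow. Fut8 and Nagk reversed on TPM as deposited in the 2NBDG comparison (-0.19 and -0.13).

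For 2NBDG, same-numbered libraries correlated over 0.1 in 5 of 6 pairs (r from 0.089 to 0.307), short of every pair, so the numbers were not taken to pair them. All 12 of these libraries correlated best with their own number, and the erythroid list was highest in replicate 3 of each spleen group. Both are hints of pairing from the data and not from the design. The 2NBDG calls above are those of the fit without pairing. In bone marrow r was from -0.191 to -0.029 and none of 6 libraries correlated best with its own number. With a replicate block the counts were 5 for 2NBDG (Alg5 higher, adjusted p = 0.0407, and Stt3a lower, adjusted p = 0.0454, added) and 2 in bone marrow (Alg5 added), and no other count changed. Calls over all tested genes rose as well. For 2NBDG they went from 499 lower and 227 higher to 697 and 474, and in bone marrow from 100 and 116 to 163 and 172.

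Depth limited Tusc3, Gfpt2 and Alg13 (at most 42, 5 and 60 estimated reads in a library), and the intervals of 3 libraries per group leave small differences undetected.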
